A study of Arabidopsis thaliana with 24 samples.

Results

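The 100 genes described here were lower in nac103-11 roots and higher in NAC103-OX roots than in wild-type (WT) roots of Arabidopsis thaliana on control medium. They were taken from a table of 24497 genes, of which 15695 had a mean of at least 5 CPM, the usual depth-scaled count, in at least 1 control group. For each gene the difference from WT was taken on log2(mean CPM + 1), and the score was the smaller of the fall in nac103-11 and the rise in NAC103-OX. The members are the 100 genes with the largest scores. They were thus chosen by measured values, since the control libraries of nac103-11, NAC103-OX and WT decided which genes were taken, and values from them are given as description, with no test. Tests are confined to libraries that the ranking did not use, those of all 4 genotypes on spectinomycin and of gun1-101 on either medium. The control libraries of gun1-101 entered only the level filter of 5 CPM.

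The data are poly(A) RNA-seq of 24 root libraries, 3 for each of 8 groups, with 13012580 to 17411876 counts per library. The 4 genotypes were WT (Col), the mutants gun1-101 and nac103-11, and NAC103-OX, in which the 35S promoter drives a NAC103-GFP fusion. The 35S promoter is active in most cells, so that this line does not keep the cell types or the level of the native gene. Seedlings about 5 days old were either kept as controls or moved to medium with 10 mg/L spectinomycin, for 16 h by the treatment protocol and for 24 h by the series design, a difference that was not resolved. Root tips of about 0.5 cm were collected, and the labels do not say how many seedlings went into a library. The libraries are labelled as biological replicates, with no word on separate plates or days.

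NAC103 is a NAC-domain transcription factor known in Arabidopsis from the unfolded-protein response of the endoplasmic reticulum, where it acts downstream of bZIP60. GUN1 belongs to the pentatricopeptide-repeat family and is needed inside plastids for their signals to reach the nucleus, and spectinomycin blocks translation on plastid ribosomes. The series title asks how the genes GUN1 and NAC103 relate when plastid translation is disrupted.

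NAC103 (AT5G64060) itself ranked 1812 by the score and was not a member. It read 0.533, 0.541 and 0.777 CPM in nac103-11, 0.568, 0.586 and 0.687 in gun1-101, 0.733, 0.917 and 0.641 in WT and 17.9, 16.6 and 17.62 in NAC103-OX on control medium. On spectinomycin it read 0.129, 0 and 0.113 CPM in nac103-11, 0.478, 0.274 and 0.676 in gun1-101, 0.568, 0.515 and 0.591 in WT and 19.6, 19.98 and 20.6 in NAC103-OX. Its transcript was high in the overexpressor on both media, while nac103-11 and WT overlapped on control medium, so that the transcript does not tell those 2 groups apart there. On spectinomycin its log2 fold change in nac103-11 against WT was -2.72 ± 0.533 (SE, adjusted p = 9.41e-05) by edgeR's quasi-likelihood test with Benjamini-Hochberg adjustment over all 19567 genes tested, from fewer than 1 CPM in every library of both groups. All adjusted p-values below come from that fit, log2 values beside them are fitted fold changes with their SE, and a gene is called where its adjusted p was under 0.05. GUN1 (AT2G31400) read 78.6 ± 1.92 CPM in gun1-101 and 141 ± 3.54 CPM in WT on spectinomycin (mean ± SD, n = 3), a log2 fold change of -0.84 ± 0.0482 (SE, adjusted p = 2.16e-19).

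Scores of the members ran from 1.39 for AT2G37870 down to 0.59, with a median of 0.74. The last 3 inside were CGLD27 with 0.60, AT5G38030 with 0.60 and AT4G29930 with 0.59. The first 3 outside were AT1G61050, AT5G01590 and the aquaporin gene PIP1;4, each with 0.59, so that the border falls within a run of near-equal genes. In WT control roots the members' levels ran from 1.41 to 2493 TPM, a transcript abundance that corrects for length, with a median of 12.5. All 100 passed the low-count filter of the test, 57 have a gene symbol, and 69 could be put in at least 1 of 9 groups by role, drawn up after their values were known.

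On control medium the median over the members, on log2(CPM + 1) minus the WT control mean, lay between -0.69 and -0.67 in the 3 nac103-11 libraries and between 0.87 and 0.88 in the 3 libraries of NAC103-OX, as the choice set it. On spectinomycin it lay between 0.70 and 0.71 in WT, between 0.77 and 0.80 in NAC103-OX, between 0.25 and 0.31 in nac103-11 and between 0.045 and 0.11 in gun1-101. The order of the genotypes on spectinomycin was thus gun1-101, nac103-11, WT and NAC103-OX from low to high. In gun1-101 on control medium the median lay between -0.14 and -0.11.

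**Figure D1:**
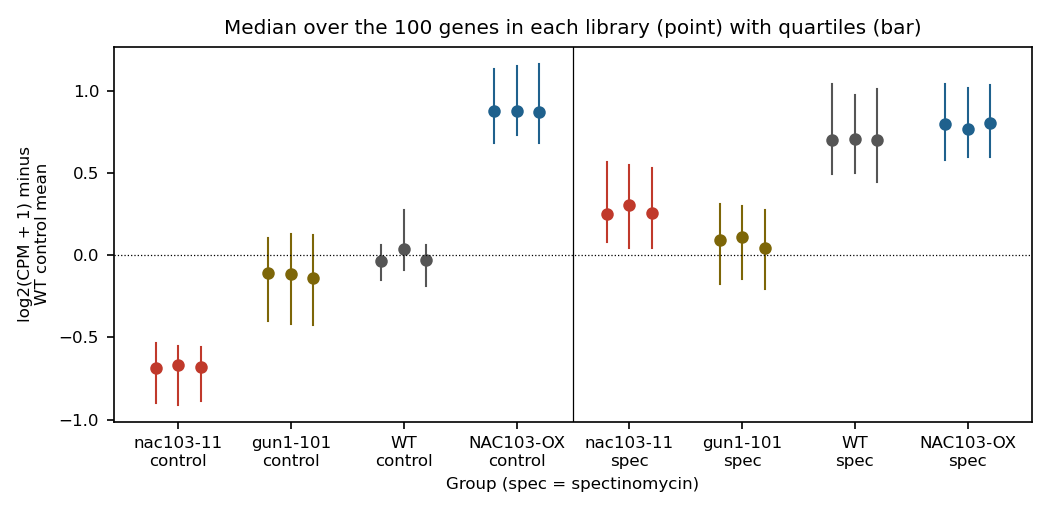
Median over the 100 genes in each of the 24 libraries (points), on log2(CPM + 1) minus the WT control mean, with quartiles over the genes (bars), by genotype and medium. On spectinomycin the libraries of gun1-101 (0.045 to 0.11) and nac103-11 (0.25 to 0.31) lie below those of WT (0.70 to 0.71) and NAC103-OX (0.77 to 0.80).

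The differences between media within WT, nac103-11 and NAC103-OX contain the control libraries that chose the members, in which a chosen gene was low for nac103-11 and high for NAC103-OX, so they are given as description and nothing is read from them. In WT 89 members had every spectinomycin library above every control library (25% of the genes ranked), 2 had every one below (25.5%), and the median difference was 0.71. In nac103-11 96 members did so upward (27.4%) and 1 downward (31.3%), with a median difference of 0.97. In NAC103-OX 7 members did so upward (12.7%) and 36 downward (15%), with a median difference of -0.10.

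The lowest of the 8 group means was that of nac103-11 on control medium for 93 members, of gun1-101 on control medium for 6 and of nac103-11 on spectinomycin for 1. The highest was that of NAC103-OX on control medium for 53 members, of WT on spectinomycin for 23, of NAC103-OX on spectinomycin for 20 and of gun1-101 on spectinomycin for 4. The choice fixed part of these counts, since it set nac103-11 below and NAC103-OX above WT on control medium. They are given as description and nothing is read from them.

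**Figure D2:**
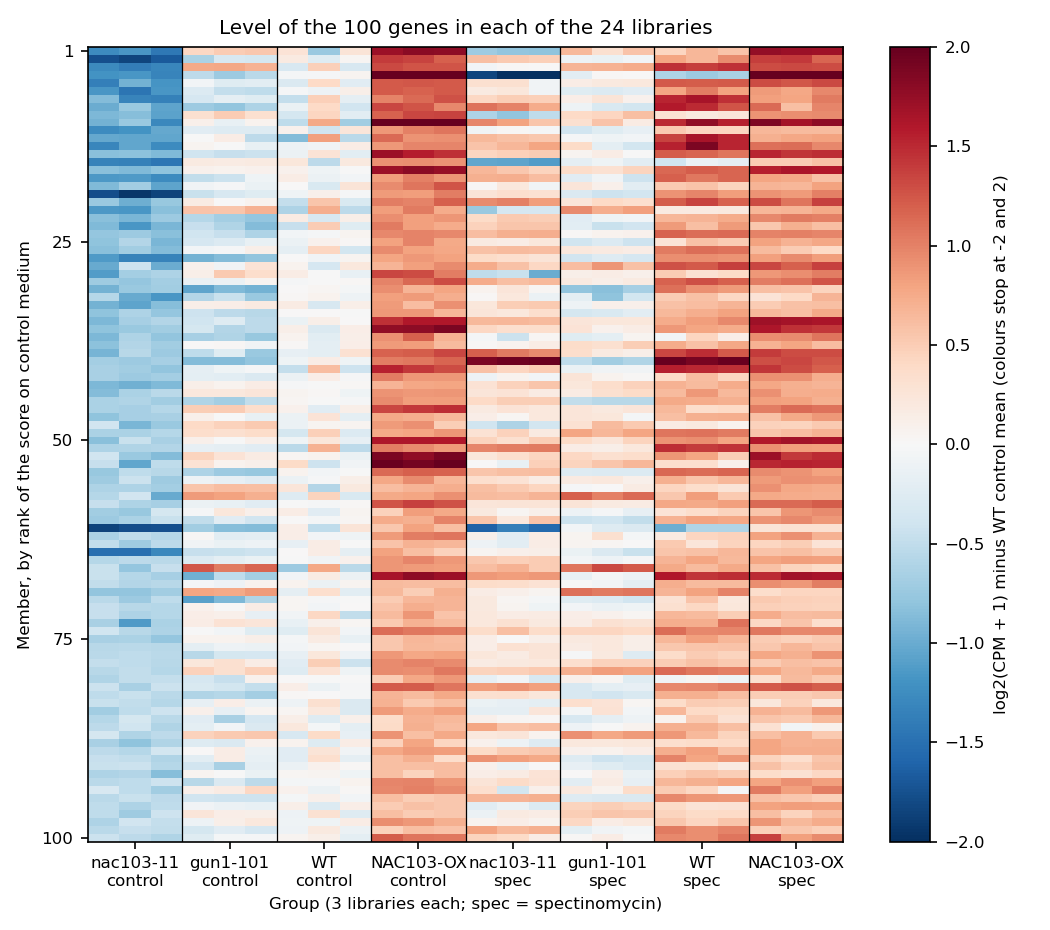
Level of each of the 100 genes (rows, by rank of the score) in each of the 24 libraries (columns, by group), as log2(CPM + 1) minus the WT control mean, with red higher and blue lower. The blue nac103-11 and red NAC103-OX columns on control medium come from the choice, and on spectinomycin most rows are red in WT as well as in NAC103-OX and paler in nac103-11 and gun1-101.

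1 library stands apart in a group that chose the members. In WT control replicate 2, 29 members read over 1.25 times both other WT control libraries, against 4.68% of the genes ranked, and 17 read under 1/1.25 of both, against 4.54%. Without it all 100 members still had a positive score, the lowest 0.036 and the median 0.71, and 73 of the 100 were chosen again. Scaling also differed between groups, since TMM library sizes moved the median gene of gun1-101 by 0.18 on control medium and by 0.22 on spectinomycin relative to WT, and that of nac103-11 by 0.13 on control medium, on the log2 scale against raw library totals. Levels and fits below use TMM sizes.

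On spectinomycin 80 of the 100 members were lower in nac103-11 than in WT, where 11.1% of all genes tested were called lower. None was higher, where 15.5% of all genes were, and 20 were not called. The median log2 fold change was -0.49 over the members and -0.01 over all genes. NAC103-OX was less one-sided, with 33 members higher than in WT (8.45% of all genes), 20 lower (8.32%) and 47 not called, and a median of 0.081. Both comparisons share the WT spectinomycin libraries. None of the 3 spectinomycin comparisons uses libraries of the choice, but NAC103-OX against nac103-11 reuses the libraries of the other two. The level filter of 5 CPM could be passed through the NAC103-OX control libraries alone, where members were high. AT3G01345, NAC074 and AT4G04460 passed it that way, with means under 5 CPM in the other control groups. Such members were not set apart in these counts. NAC103-OX against nac103-11 gave 80 higher (14.4%), 5 lower (16.7%) and 15 not called, with a median of 0.55.

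The same rule applied to the spectinomycin libraries took 26 of the 100 members again, where 100 genes are 0.637% of those ranked. On spectinomycin 58 members had a positive score, which 27.0% of the genes ranked had, and the median score was 0.051, against 0.74 on control medium. By group mean on library totals, as in the rule, 99 members were lower in nac103-11 than in WT, as were 65.5% of the genes ranked. On TMM sizes 98 members were lower, against 49.7%. On library totals 59 members were higher in NAC103-OX than in WT, against 47.4% of the genes ranked, and on TMM sizes 61 were, against 51.5%. By the direction of the group mean alone NAC103-OX was thus not far from the background. By calls it was further from it, with 33 members higher (8.45% of all genes) and 20 lower (8.32%).

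**Figure D3:**
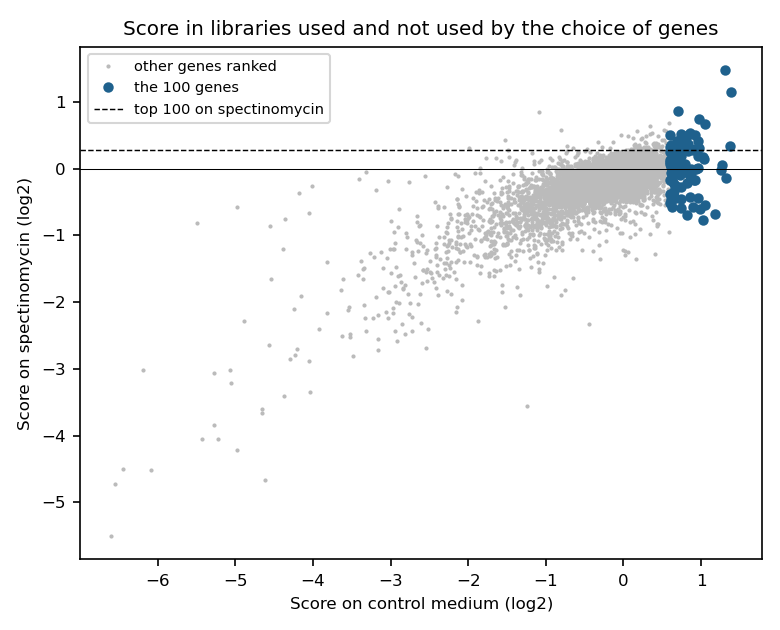
Score of each gene ranked, the smaller of the fall in nac103-11 and the rise in NAC103-OX against WT on a log2 scale, on control medium (horizontal, used for the choice) and on spectinomycin (vertical), with the members in blue. Of the members 26 lie above the dashed line that bounds the 100 highest scores on spectinomycin, and 58 lie above 0.

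gun1-101 took no part in the ranking, and its control libraries entered the choice only through the level filter. On spectinomycin 76 members were lower in gun1-101 than in WT, where 29.3% of all genes were called lower, 6 were higher (27.7%) and 18 were not called. With raw library totals 84 members and 54.9% of all genes were called lower. The 6 were AT3G01345, SQE6, AT2G04050, FNR2, BHLH101 and CYP81D11, and their number was 3 with raw library totals, 11 with the 2 groups fitted alone and 11 without WT control replicate 2. The median was -0.64 over the members and -0.05 over all genes, and 32 members, against 2.12% of all genes, were at least 2-fold lower. Within gun1-101, 33 members were higher on spectinomycin than on control medium (3.22% of all genes), 2 were lower (7.96%) and 65 were not called, with a median of 0.23. On control medium gun1-101 and WT overlapped for 48 members, while 37 had every gun1-101 library lower (19.6% of the genes ranked) and 15 every one higher (29.7%). That last comparison uses the WT control libraries of the choice and is not tested.

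**Figure D4:**
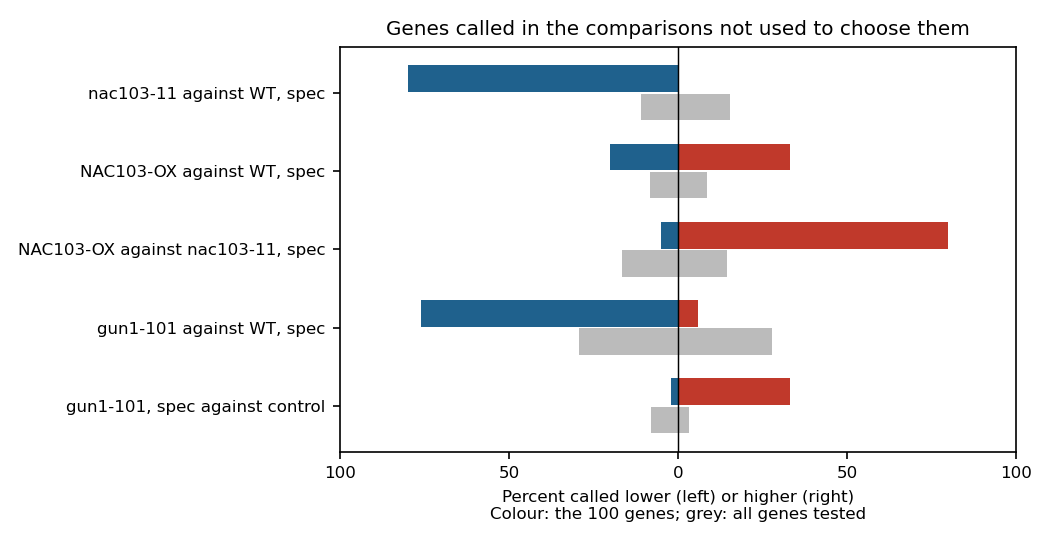
Percent of the 100 genes (colour) and of all 19567 genes tested (grey) called lower (left) or higher (right) at an adjusted p under 0.05. The 5 comparisons use none of the libraries behind the ranking, but the gun1-101 control libraries entered the level filter. For nac103-11 against WT the members gave 80 lower and 0 higher, and for gun1-101 against WT 76 lower and 6 higher.

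The word CATGTG is known to be bound by other NAC factors of Arabidopsis. On either strand it was found in the 250 bases before the annotated gene start of 15 of the 100 members, and in 10.4% of 15694 genes ranked. TCATCG, known from the promoter of NAC103 itself as the element through which bZIP60 raises NAC103 in the unfolded-protein response, was found in 7 members and 6.41% of genes. The G-box CACGTG was found in 8 members and 7.28% of genes, the W-box word TTGACC in 13 and 12.8%, and CACGCA in 5 and 3.22%. The motif named for mitochondrial dysfunction was found in 1 and 0.414%. No word contains another, all were searched on either strand, and a match is a description, not a site. The 3 promoters below show where CATGTG lies in members whose values in every library follow, in the gene's direction and ending at the base before the start, with CATGTG or its reverse complement CACATG in capitals. They are RefSeq sequence of build TAIR10.1, matched by locus tag, since the build used for counting is not given in the sources used here. NRT1.5 and MLP43 lie on the minus strand of chromosome 1 and THAS1 on the plus strand of chromosome 5.
NRT1.5: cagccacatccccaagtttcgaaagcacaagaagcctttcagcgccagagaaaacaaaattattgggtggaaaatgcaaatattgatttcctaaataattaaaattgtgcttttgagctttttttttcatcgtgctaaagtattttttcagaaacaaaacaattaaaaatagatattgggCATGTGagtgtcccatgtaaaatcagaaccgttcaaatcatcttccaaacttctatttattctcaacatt
MLP43: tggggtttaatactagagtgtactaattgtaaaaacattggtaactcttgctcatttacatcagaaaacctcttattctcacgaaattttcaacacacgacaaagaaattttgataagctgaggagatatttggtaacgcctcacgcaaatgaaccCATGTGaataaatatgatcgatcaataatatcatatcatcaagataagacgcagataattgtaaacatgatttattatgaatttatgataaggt
THAS1: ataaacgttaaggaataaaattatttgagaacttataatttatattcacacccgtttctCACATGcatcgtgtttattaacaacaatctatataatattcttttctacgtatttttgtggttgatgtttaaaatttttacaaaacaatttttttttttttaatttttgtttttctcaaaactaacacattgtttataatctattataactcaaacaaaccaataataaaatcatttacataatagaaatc

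Counts by role are to be read beside those over all 100 members and the shares of all genes. On spectinomycin these were 80 and 11.1% lower in nac103-11 than in WT. In gun1-101 they were 76 and 29.3% lower and 6 and 27.7% higher, and in NAC103-OX 33 and 8.45% higher and 20 and 8.32% lower. Whether a role group differed from the other members was not tested. Transport proteins made up 17 of the members, and on spectinomycin all 17 were lower in nac103-11 than in WT, 14 were lower in gun1-101 and 1 was higher. In NAC103-OX 6 were higher than in WT, 4 were lower and 7 were not called. NRT1.5 (AT1G32450) loads nitrate into the root xylem for transport to the shoot. On control medium it read 54.1, 50.04 and 52.8 CPM in nac103-11, 223, 225 and 213 in gun1-101, 106, 185 and 105 in WT and 330.3, 316 and 318 in NAC103-OX. On spectinomycin it read 127, 135 and 133 CPM in nac103-11, 211, 214 and 222 in gun1-101, 364, 346 and 367 in WT and 329, 329.5 and 329 in NAC103-OX. On both media nac103-11 lay below all other groups, which the choice had set against WT and NAC103-OX on control medium. WT control replicate 2 stood above the other WT control libraries, and on spectinomycin NAC103-OX lay just below WT. The log2 fold change on spectinomycin was -1.44 ± 0.138 (SE, adjusted p = 2.75e-07) in nac103-11 against WT and -0.74 ± 0.135 (SE, adjusted p = 0.000171) in gun1-101 against WT. NAC103-OX against WT gave -0.12 (adjusted p = 0.591) and was not called.

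SULTR2;1 (AT5G10180), a low-affinity sulfate transporter of vascular tissue, differed from NRT1.5 on spectinomycin. It read 4.04, 4.19 and 3.496 CPM in nac103-11, 10.8, 12.4 and 10.7 in gun1-101, 6.35, 11.7 and 7.13 in WT and 20.3, 22.7 and 23.001 in NAC103-OX on control medium. With spectinomycin the values were 5.14, 4.43 and 5.63 CPM in nac103-11, 11.3, 11.6 and 13.2 in gun1-101, 10.4, 9.73 and 10.102 in WT and 16.4, 16.8 and 17.1 in NAC103-OX. The spectinomycin groups nac103-11, WT and NAC103-OX were ordered with no overlap, and gun1-101 lay above WT. The fold change against WT was -0.99 ± 0.146 (SE, adjusted p = 1.35e-06) in nac103-11 and 0.74 ± 0.119 (SE, adjusted p = 1.88e-05) in NAC103-OX on the log2 scale, and 0.25 (adjusted p = 0.0904) in gun1-101.

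The aquaporin gene TIP2;2 (AT4G17340) encodes a water channel of the vacuole. Its control values were 158, 164 and 184 CPM in nac103-11, 321, 315 and 315 in gun1-101, 401, 288 and 445 in WT and 689.8, 758 and 793 in NAC103-OX. Its spectinomycin values were 359.8, 385 and 369.6 CPM in nac103-11, 291, 319 and 338 in gun1-101, 543, 509 and 508 in WT and 600.2, 589 and 585 in NAC103-OX. On spectinomycin the groups were ordered gun1-101, nac103-11, WT and NAC103-OX with no overlap. TIP2;2 gave -0.49 ± 0.108 (SE, adjusted p = 0.00256) in nac103-11, -0.72 ± 0.109 (SE, adjusted p = 2.16e-05) in gun1-101 and 0.19 ± 0.107 (SE, adjusted p = 0.273) in NAC103-OX. Its relative TIP2;3 gave -0.25 (adjusted p = 0.00918), -0.25 (adjusted p = 0.00454) and 0.62 (adjusted p = 1.92e-07) in the same order, and was among the 2 members called lower on spectinomycin than on control medium within gun1-101, at -0.23 (adjusted p = 0.0448), a call lost with RLE size factors, raw totals, no filter, the replicate block and without any 1 of 5 of its 6 replicates. The call of TIP2;3 in nac103-11 was lost without nac103-11 replicate 1 or WT replicate 1. The other was AT1G14960.

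Other transport members spread between these patterns. FRD3, a citrate exporter needed for iron to move in the xylem, gave -0.25 (adjusted p = 0.00089) in nac103-11 and 0.0379 (adjusted p = 0.72) in NAC103-OX against WT on spectinomycin. The anion exchanger gene CLC-B of the tonoplast gave -0.23 (adjusted p = 0.019) and 0.32 (adjusted p = 0.00123), the former lost as a call with DESeq2 and without nac103-11 replicate 1 or WT replicate 3. The major facilitator gene AT3G45680 was lower in both, at -1.15 (adjusted p = 2.59e-08) and -0.68 (adjusted p = 0.000335), and lower still in gun1-101 at -2.09 (adjusted p = 6.30e-14), from 18 to 43 counts per gun1-101 library. AT2G40460, of the same superfamily, was also lower in both, at -1.21 (adjusted p = 1.38e-08) and -0.72 (adjusted p = 0.000132). By contrast the MATE efflux gene AT2G04050 gave -1.01 (adjusted p = 5.98e-05) in nac103-11, 1.13 (adjusted p = 1.56e-07) in NAC103-OX and 0.60 (adjusted p = 0.00138) in gun1-101, and so was higher than in WT in both of the latter.

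**Figure D5:**
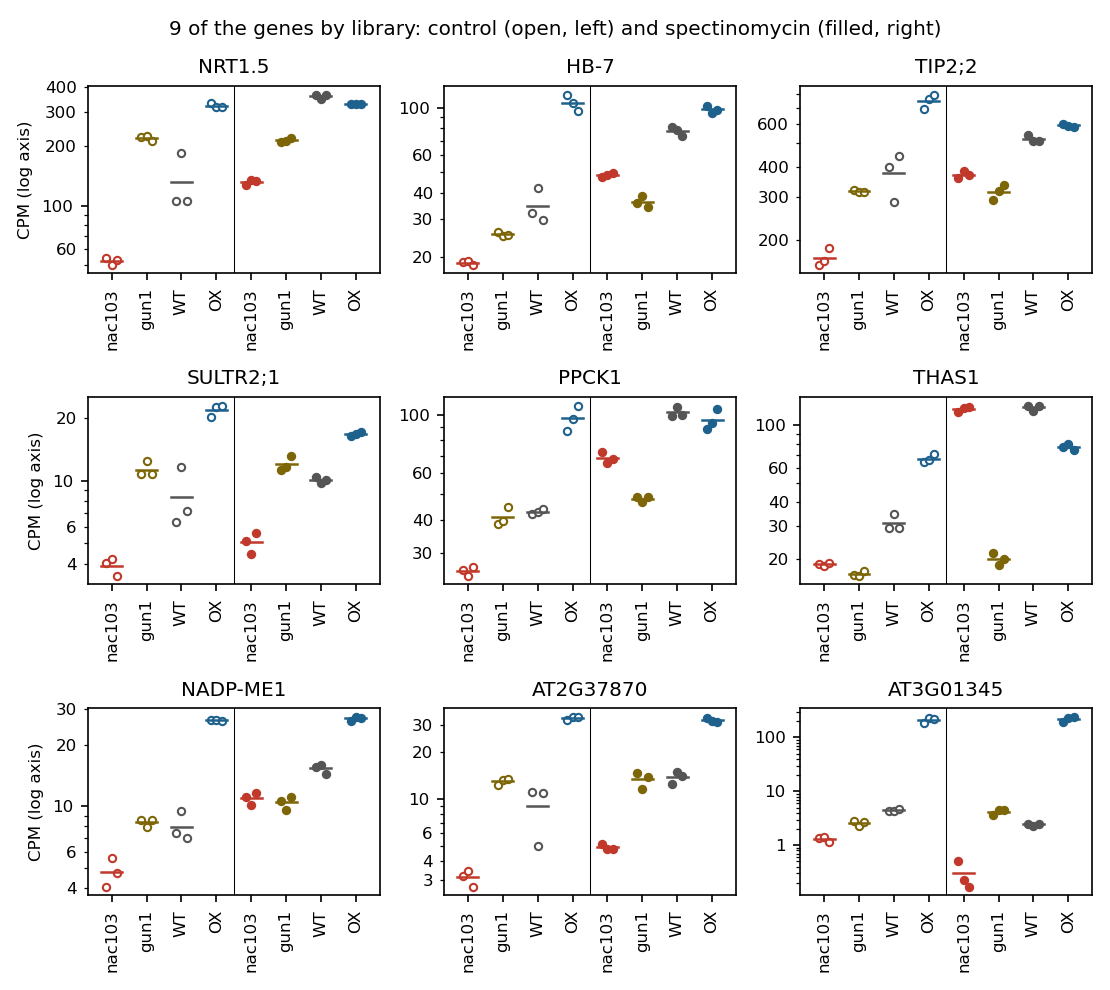
CPM on TMM library sizes (log axis) of 9 of the genes in each library, control medium left with open points and spectinomycin right with filled points, with a line at the group mean and genotypes shortened to nac103, gun1, WT and OX. NRT1.5 and SULTR2;1 are lowest in nac103-11 on both media, which the choice set against WT and NAC103-OX on control medium. THAS1 on spectinomycin reads 121 CPM in nac103-11 and 20.07 CPM in gun1-101 on average.

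Genes of abscisic acid and dehydration responses formed a group of 5. On spectinomycin 4 of them were lower in nac103-11 than in WT, all 5 were lower in gun1-101, 2 were higher in NAC103-OX than in WT, and all 5 were higher in NAC103-OX than in nac103-11. HB-7 (AT2G46680) encodes a homeodomain-leucine zipper factor induced by abscisic acid and water deficit. It read 18.9, 19.2 and 18.4 CPM in nac103-11, 26.2, 24.96 and 25.4 in gun1-101, 31.99, 42.2 and 29.9 in WT and 115, 105 and 96.8 in NAC103-OX on control medium. On spectinomycin the values were 47.2, 48.6 and 49.7 CPM in nac103-11, 35.9, 38.6 and 34.4 in gun1-101, 81.5, 78.6 and 73.9 in WT and 102, 94.7 and 97.9 in NAC103-OX. The order gun1-101, nac103-11, WT and NAC103-OX held on spectinomycin with no overlap between neighbours. HB-7 gave -0.68 ± 0.0750 (SE, adjusted p = 1.49e-08) in nac103-11, 0.33 ± 0.0709 (SE, adjusted p = 0.00109) in NAC103-OX and -1.10 ± 0.0792 (SE, adjusted p = 2.86e-13) in gun1-101 against WT, and 0.51 (adjusted p = 0.000238) on spectinomycin against control within gun1-101.

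P5CS1 makes the precursor of proline, which builds up under water deficit, and AFP1 binds the abscisic acid factor ABI5. P5CS1 read 30.995, 27.5 and 26.6 CPM in nac103-11, 39.6, 38.7 and 36.6 in gun1-101, 42.9, 42.4 and 43.5 in WT and 104, 113 and 105 in NAC103-OX on control medium. With spectinomycin it read 50.8, 51.5 and 51.4 CPM in nac103-11, 51.5, 48.8 and 48.2 in gun1-101, 74.2, 73.5 and 76.3 in WT and 95.1, 95.6 and 100.2 in NAC103-OX. On spectinomycin nac103-11 and gun1-101 overlapped, both lay below WT, and NAC103-OX lay above it. P5CS1 gave -0.54 (adjusted p = 8.45e-12) in nac103-11, 0.38 (adjusted p = 9.34e-08) in NAC103-OX and -0.59 (adjusted p = 2.58e-13) in gun1-101. AFP1 gave -0.63 (adjusted p = 0.00458), 0.32 (adjusted p = 0.158) and -0.50 (adjusted p = 0.0149) in the same order. Both were lower in nac103-11 and gun1-101, and P5CS1 was higher in NAC103-OX. The call of AFP1 in gun1-101 was lost with DESeq2 and without gun1-101 replicate 1 or 3 or WT replicate 1. The small membrane protein gene RCI2A gave -0.25 (adjusted p = 0.17) in nac103-11, and ABCG25, an exporter of abscisic acid, gave -0.33 (adjusted p = 9.90e-06).

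A list of 12 known abscisic acid genes, none of them a member, gives the wider pathway. Of the 11 tested, 8 were higher in NAC103-OX than in nac103-11 on spectinomycin (14.4% of all genes) and none was lower (16.7%). The median was 0.50, against 0.00058 over all genes. RAB18, a dehydrin, gave 2.39 and the dehydration gene LTI78 1.24, both called. Against WT 3 of the 11 were lower in nac103-11 (11.1% of all genes) and 8 were not called, and 4 were higher in NAC103-OX (8.45%) and 7 were not called. In gun1-101 2 were higher (27.7%) and 3 were lower (29.3%).

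Specialised metabolism accounts for 13 members, mostly cytochrome P450, terpenoid and glycosyltransferase genes. On spectinomycin 10 were lower in nac103-11 than in WT and 3 were not called, while 11 were lower in gun1-101 and 2 were higher. THAS1 (AT5G48010) makes thalianol, the first triterpene of a metabolic gene cluster in Arabidopsis roots. On control medium it read 18.9, 18.4 and 19.2 CPM in nac103-11, 16.6, 16.4 and 17.4 in gun1-101, 29.1, 34.6 and 29.1 in WT and 63.98, 65.5 and 70.4 in NAC103-OX. On spectinomycin it read 116, 122 and 124 CPM in nac103-11, 21.6, 18.7 and 19.97 in gun1-101, 126, 119 and 125 in WT and 76.97, 79.4 and 74.2 in NAC103-OX. The nac103-11 and WT libraries overlapped on spectinomycin, NAC103-OX lay below them, and gun1-101 lay lowest. THAS1 gave -0.0280 (adjusted p = 0.736) in nac103-11, -0.68 ± 0.0520 (SE, adjusted p = 9.77e-14) in NAC103-OX and -2.62 ± 0.0623 (SE, adjusted p = 2.11e-33) in gun1-101, so that the order of nac103-11 and NAC103-OX was turned round against control medium. In a list of 9 triterpene cluster genes that holds THAS1, 8 were tested. On spectinomycin 6 were lower (16.7% of all genes) and none higher (14.4%) in NAC103-OX than in nac103-11.

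The neighbouring genes TPS12, a terpenoid synthase gene, and CYP71A19, a P450 gene next to it on chromosome 4, were both members. In gun1-101 against WT on spectinomycin TPS12 gave -1.80 (adjusted p = 2.60e-09) and CYP71A19 gave -1.09 (adjusted p = 3.44e-09). In nac103-11 the values were -1.09 (adjusted p = 4.73e-06) and -1.08 (adjusted p = 9.06e-09). UGT72E2, which glucosylates monolignols, gave -0.46 (adjusted p = 3.81e-11) in nac103-11 and -1.10 (adjusted p = 7.49e-24) in gun1-101. CYP706A7, a P450 gene, gave -0.65 (adjusted p = 1.14e-11) in nac103-11 and 0.43 (adjusted p = 1.38e-07) in NAC103-OX. UGT84A2, a sinapate glucosyltransferase gene, gave -0.20 (adjusted p = 0.0159) in nac103-11, 0.83 (adjusted p = 3.03e-14) in NAC103-OX and -0.63 (adjusted p = 1.23e-10) in gun1-101 against WT on spectinomycin, and its call in nac103-11 was lost with DESeq2 and without nac103-11 replicate 1 or 3 or WT replicate 3. SQE6, a squalene monooxygenase gene, was higher in gun1-101, at 0.75 (adjusted p = 0.017), a call lost with raw totals and without gun1-101 replicate 1.

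The carbon enzymes PPCK1 and PPCK2 are the kinases that phosphorylate phosphoenolpyruvate carboxylase. PPCK1 (AT1G08650) read 25.97, 24.6 and 26.5 CPM in nac103-11, 38.5, 39.7 and 44.6 in gun1-101, 42.1, 42.9 and 43.97 in WT and 86.7, 96.3 and 108 in NAC103-OX on control medium. With spectinomycin it read 72.4, 65.8 and 68.1 CPM in nac103-11, 48.7, 46.97 and 48.7 in gun1-101, 99.2, 107 and 99.5 in WT and 88.4, 93.2 and 105 in NAC103-OX. On spectinomycin WT and NAC103-OX overlapped, nac103-11 lay below them and gun1-101 lay lowest. PPCK1 gave -0.57 ± 0.0623 (SE, adjusted p = 1.73e-09) in nac103-11 and -1.08 ± 0.0657 (SE, adjusted p = 2.31e-17) in gun1-101, and PPCK2 gave -0.87 (adjusted p = 9.88e-12) and -1.84 (adjusted p = 6.12e-21).

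NADP-ME1 (AT2G19900), an NADP-malic enzyme that turns malate into pyruvate, was ordered nac103-11, WT and NAC103-OX on spectinomycin. The choice had set that order on control medium. Its control values were 4.04, 5.61 and 4.73 CPM in nac103-11, 8.58, 7.96 and 8.58 in gun1-101, 7.45, 9.46 and 6.98 in WT and 26.5, 26.6 and 26.2 in NAC103-OX. Its values on spectinomycin were 11.2, 10.14 and 11.7 CPM in nac103-11, 10.6, 9.60 and 11.2 in gun1-101, 15.7, 16.02 and 14.5 in WT and 26.3, 27.6 and 27.2 in NAC103-OX. Every NAC103-OX library lay above every other library on both media, and nac103-11 and gun1-101 overlapped on spectinomycin. NADP-ME1 gave -0.48 ± 0.0928 (SE, adjusted p = 6.52e-05) in nac103-11, 0.81 ± 0.0821 (SE, adjusted p = 3.10e-10) in NAC103-OX and -0.56 ± 0.0967 (SE, adjusted p = 4.50e-06) in gun1-101 against WT.

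Of 8 transcription factor genes, 7 were lower in nac103-11 than in WT on spectinomycin and 1 was not called. In NAC103-OX 6 were higher and 1 was lower. NAC074, of the same family as NAC103, gave -0.52 (adjusted p = 0.00155) in nac103-11, 0.79 (adjusted p = 3.85e-07) in NAC103-OX and -0.75 (adjusted p = 9.76e-06) in gun1-101, and was higher on spectinomycin within gun1-101 at 0.89 (adjusted p = 0.000577). KNAT3, a knotted-like homeobox gene, gave -0.30 (adjusted p = 0.00488) and 0.29 (adjusted p = 0.00611) in nac103-11 and NAC103-OX, calls lost without nac103-11 replicate 2 and without WT replicate 3 respectively. MYB48 was the member lower in NAC103-OX, at -0.57 (adjusted p = 0.00463). BHLH101, a regulator of the iron-deficiency response, gave -0.81 (adjusted p = 0.000531) in nac103-11 and 0.44 (adjusted p = 0.0163) in gun1-101, the latter lost with raw totals and without gun1-101 replicate 2 or WT replicate 3. In NAC103-OX it gave 0.43 (adjusted p = 0.0484), a call lost with DESeq2, raw totals, no filter, the replicate block and without any 1 of the 6 replicates. In the list of 18 iron-deficiency genes that includes BHLH101, 11 were lower in nac103-11 than in WT (11.1% of all genes) and none was higher (15.5%). In NAC103-OX 3 were higher (8.45%) and 3 lower (8.32%) than in WT, and 12 were higher (14.4%) and none lower (16.7%) than in nac103-11.

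The plastid group of 9 holds LHCB3 and LHB1B2, which encode light-harvesting proteins of photosystem II, PORB, which encodes a chlorophyll synthesis enzyme, and FNR2, which encodes a ferredoxin reductase. On spectinomycin 6 were lower in nac103-11 than in WT and 3 were not called, and in NAC103-OX 2 were higher and 3 were lower. LHCB3 (AT5G54270) read 18.7, 18.7 and 19.6 CPM in nac103-11, 37.96, 37.4 and 38.4 in gun1-101, 22.96, 41.7 and 24.3 in WT and 50.7, 51.8 and 55.3 in NAC103-OX on control medium. On spectinomycin its values were 36.7, 41.2 and 33.8 CPM in nac103-11, 52.2, 47.5 and 52.04 in gun1-101, 63.1, 64.1 and 61.9 in WT and 44.03, 45.97 and 48.7 in NAC103-OX. The nac103-11 libraries lay below those of WT on spectinomycin, and NAC103-OX and WT did not overlap. LHCB3 gave -0.76 (adjusted p = 0.00037) in nac103-11 and -0.45 (adjusted p = 0.0283) in NAC103-OX. PIFI, which encodes a factor of chlororespiration, gave -0.48 (adjusted p = 0.0123) and 0.94 (adjusted p = 1.74e-07). The call of LHCB3 in NAC103-OX was lost without any 1 of the 6 replicates, and that of PIFI in nac103-11 without nac103-11 replicate 1 or WT replicate 1 or 2. In gun1-101 against WT on spectinomycin 4 of the 9 were lower, 1 was higher and 4 were not called, with a median of -0.30. The 1 higher was FNR2, at 0.55 (adjusted p = 0.00158). A list of 31 photosynthesis genes, of which LHCB3 is a member here, had 8 lower (11.1% of all genes) and 4 higher (15.5%) in nac103-11 than in WT. In NAC103-OX 12 were lower (8.32%) and 1 was higher (8.45%). The summed level of the list ran from 724 to 1201 CPM over the WT control libraries, with a median of 727, so that 1 library alone set the upper end. It ran from 1475 to 1500 over the WT spectinomycin libraries. The part of these levels in the members' values was not tested.

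Lipid-transfer family genes gave the member with the largest score. AT2G37870 read 3.20, 3.45 and 2.72 CPM in nac103-11, 12.3, 13.2 and 13.5 in gun1-101, 11.1, 4.99 and 10.97 in WT and 31.9, 33.8 and 33.4 in NAC103-OX on control medium. On spectinomycin it read 5.14, 4.77 and 4.73 CPM in nac103-11, 14.7, 11.5 and 13.9 in gun1-101, 12.5, 14.9 and 13.9 in WT and 32.9, 31.8 and 31.3 in NAC103-OX. On both media the NAC103-OX libraries lay above all others and the nac103-11 libraries lay below all others, and gun1-101 and WT overlapped on spectinomycin. On control medium the order of nac103-11, WT and NAC103-OX came from the choice. It gave -1.50 ± 0.181 (SE, adjusted p = 8.34e-07) in nac103-11 and 1.21 ± 0.135 (SE, adjusted p = 6.97e-07) in NAC103-OX, with -0.0464 (adjusted p = 0.819) in gun1-101. AT3G53980 of the same family gave -0.86 (adjusted p = 0.00011) and 0.77 (adjusted p = 0.000372) in nac103-11 and NAC103-OX. AT4G33550, also of the family, gave -1.55 (adjusted p = 2.93e-07) in nac103-11 against WT, from 21, 26 and 12 counts in the nac103-11 libraries. It gave 2.22 (adjusted p = 2.73e-12) in NAC103-OX against nac103-11. Of the 5 members of the family 3 were lower in nac103-11, 3 were higher in NAC103-OX and 1 was lower in gun1-101 on spectinomycin. The MLP-like genes MLP34, AT1G70880 and MLP43 lie within 5 genes of each other on chromosome 1, and encode small proteins related to the major latex proteins. MLP43 (AT1G70890) read 13.6, 16.5 and 13.1 CPM in nac103-11, 16.7, 16.001 and 18.03 in gun1-101, 25.6, 37.5 and 21.5 in WT and 72.8, 68.6 and 55.6 in NAC103-OX on control medium. Its spectinomycin values were 60.8, 56.9 and 47.9 CPM in nac103-11, 26.3, 22.6 and 21.6 in gun1-101, 86.4, 80.8 and 68.8 in WT and 62.97, 43.5 and 56.5 in NAC103-OX. On spectinomycin gun1-101 lay lowest and WT highest, and nac103-11 and NAC103-OX overlapped. MLP43 was lower in gun1-101 than in WT, at -1.74 (adjusted p = 2.59e-07), and gave -0.51 (adjusted p = 0.0256) in nac103-11 and -0.53 (adjusted p = 0.0314) in NAC103-OX. The last of these calls was lost with the contrast's groups alone and without WT replicate 1 or 2 or NAC103-OX replicate 2 or 3, and that in nac103-11 without nac103-11 replicate 2 or 3 or WT replicate 1 or 2. AT1G70880 gave -0.28 (adjusted p = 0.196) and -1.36 (adjusted p = 1.40e-07) in nac103-11 and gun1-101, and MLP34 gave -0.22 (adjusted p = 0.000108) and -1.18 (adjusted p = 2.07e-26).

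Protease genes made up 6 members, among them 4 aspartyl protease genes, the carboxypeptidase gene SCPL12 and the metacaspase gene MC6. On spectinomycin 5 of the 6 were lower in nac103-11 than in WT and 5 were lower in gun1-101, while in NAC103-OX 1 was higher, 1 was lower and 4 were not called. The aspartyl protease gene AT4G04460 read 2.44, 1.28 and 2.33 CPM in nac103-11, 4.75, 3.94 and 4.03 in gun1-101, 5.13, 2.52 and 3.49 in WT and 17.5, 16.8 and 18.5 in NAC103-OX on control medium. On spectinomycin its values were 3.73, 3.27 and 5.57 CPM in nac103-11, 5.39, 5.90 and 6.46 in gun1-101, 4.92, 4.98 and 4.08 in WT and 12.4, 12.8 and 12.5 in NAC103-OX. NAC103-OX lay above every other group on both media, which the choice had set against WT and nac103-11 on control medium. The nac103-11 and WT libraries overlapped on spectinomycin. AT4G04460 gave 1.43 (adjusted p = 8.25e-09) in NAC103-OX, -0.14 (adjusted p = 0.616) in nac103-11 and 0.35 (adjusted p = 0.0983) in gun1-101. SCPL12 gave -0.47 (adjusted p = 1.16e-05) in nac103-11 and -0.44 (adjusted p = 7.54e-05) in NAC103-OX, and MC6 gave -0.55 (adjusted p = 0.00444) and 0.23 (adjusted p = 0.255).

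Within gun1-101 the largest rises on spectinomycin among called members were those of AT3G05860, a MADS-box factor gene with 0.91 (adjusted p = 0.0316), the glycosyltransferase gene AT5G38010 with 0.90 (adjusted p = 0.000597) and NAC074. CYP71B11 with 0.72 (adjusted p = 9.39e-05) and AT2G04050 with 0.71 (adjusted p = 0.00337) came next. The call of AT3G05860 was lost without gun1-101 spectinomycin replicate 2 or 3 or any 1 of the 3 control replicates. The NAC074 gene (AT4G28530) read 1.37, 1.49 and 1.55 CPM in nac103-11, 2.27, 1.76 and 1.89 in gun1-101, 3.48, 2.41 and 3.56 in WT and 13.2, 13.4 and 14.4 in NAC103-OX on control medium. On spectinomycin it read 4.50, 4.21 and 4.28 CPM in nac103-11, 4.03, 3.43 and 3.604 in gun1-101, 6.57, 6.18 and 5.91 in WT and 11.7, 10.5 and 10.08 in NAC103-OX. The NAC103-OX libraries lay highest on both media, which the choice had set against WT and nac103-11 on control medium, and gun1-101 lay below WT on both. Over all 100 members 33 rose on spectinomycin within gun1-101 (3.22% of all genes) and 2 fell (7.96%). Of the 13 specialised metabolism genes 9 rose and none fell, and of the 17 transport genes 7 rose and 1 fell. None of the 6 protease and 5 lipid-transfer genes was called in that comparison.

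The member with the largest differences, AT3G01345, is annotated as an uncharacterized protein. It read 1.37, 1.42 and 1.17 CPM in nac103-11, 2.77, 2.26 and 2.75 in gun1-101, 4.27, 4.36 and 4.63 in WT and 185, 227 and 223 in NAC103-OX on control medium. On spectinomycin it read 0.514, 0.222 and 0.169 CPM in nac103-11, 3.69, 4.53 and 4.43 in gun1-101, 2.53, 2.29 and 2.47 in WT and 197, 226 and 245 in NAC103-OX. NAC103-OX stood far above every other group on both media, and nac103-11 lay below WT on both, directions that the choice had set on control medium. It gave 6.52 ± 0.108 (SE, adjusted p = 9.69e-30) in NAC103-OX and -3.02 ± 0.355 (SE, adjusted p = 3.65e-08) in nac103-11 against WT on spectinomycin, the latter from 8, 4 and 3 counts in the nac103-11 libraries. In gun1-101 it gave 0.79 (adjusted p = 0.00108).

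Other members have known roles outside these groups. EXPA17, an alpha-expansin gene, gave -0.30 (adjusted p = 0.0339) in nac103-11 and 0.56 (adjusted p = 4.18e-05) in NAC103-OX on spectinomycin, the former lost with DESeq2, with RLE factors and without any 1 of 5 of the 6 replicates. VSP2, a vegetative storage protein gene induced by jasmonate, was lower in gun1-101 at -1.79 (adjusted p = 5.62e-05) and in NAC103-OX at -0.82 (adjusted p = 0.0323), the latter lost with DESeq2 and without any 1 of 5 of the 6 replicates. GH3.17, which encodes an enzyme that joins auxin to glutamate, gave -0.14 (adjusted p = 0.0687) and 0.25 (adjusted p = 0.00153) in nac103-11 and NAC103-OX. FAR1, which makes fatty alcohols for suberin, gave -0.51 (adjusted p = 0.00561) in nac103-11, and CASP5, of the Casparian strip, gave -0.28 (adjusted p = 0.0823).

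Summed levels of root tissue markers were compared with these results. All 17 suberin and endodermis genes together read 374 to 430 CPM in WT on control medium, where the sum was 460 to 463 in nac103-11, 443 to 449 in gun1-101 and 429 to 452 in NAC103-OX. With spectinomycin this sum was 427 to 438 in WT, 493 to 511 in nac103-11, 450 to 477 in NAC103-OX and 433 to 447 in gun1-101. In nac103-11 against WT 7 of the 17 genes were called higher (15.5% of all genes) and 1 lower (11.1%). The 10 xylem genes read 124 to 125 CPM in WT, 126 to 132 in nac103-11, 104 to 110 in NAC103-OX and 112 to 118 in gun1-101 on spectinomycin. The 11 root hair genes overlapped between all genotypes but gun1-101 on spectinomycin, with 518 to 607 in WT, 524 to 634 in nac103-11, 566 to 657 in NAC103-OX and 460 to 477 in gun1-101. The 6 phloem genes read 365 to 378 CPM in WT, 374 to 389 in nac103-11, 393 to 406 in gun1-101 and 412 to 421 in NAC103-OX on spectinomycin. Of these 6, 3 were called higher in NAC103-OX than in WT (8.45% of all genes). The 6 root cap genes read 79.2 to 85.1 in WT, 85.0 to 89.7 in nac103-11, 84.5 to 91.9 in NAC103-OX and 112 to 115 in gun1-101.

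Summed markers of dividing cells were lowest in gun1-101 on spectinomycin, and were below WT in nac103-11 and NAC103-OX as well. On spectinomycin the 10 S phase genes summed to 124 to 134 CPM in WT, 114 to 123.5 in NAC103-OX, 108 to 115 in nac103-11 and 96.6 to 99.5 in gun1-101. Of the 10, 9 were called lower than in WT in gun1-101 (29.3% of all genes) and 6 in nac103-11 (11.1%). On control medium too the sum was lower than in WT, with 114 to 120 CPM in WT, 97.9 to 105 in NAC103-OX, 94.4 to 97.1 in nac103-11 and 88.5 to 93.7 in gun1-101. The 11 genes of G2 and M phase summed on spectinomycin to 102.96 to 106 CPM in WT, 91.2 to 96.0 in nac103-11, 82.3 to 89.1 in NAC103-OX and 72.0 to 78.0 in gun1-101. Of the 11, 9 were called lower in gun1-101 (29.3% of all genes), 4 in NAC103-OX (8.32%) and 2 in nac103-11 (11.1%). On control medium this sum was 96.8 to 102 CPM in WT, 81.0 to 85.2 in nac103-11, 79.5 to 85.2 in NAC103-OX and 73.7 to 80.2 in gun1-101. The part of these tissue and division markers in the members' values was not tested. None of the marker genes was at 0 in every library. In whole root tips fewer cells of a type and less RNA per cell cannot be told apart.

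Genes of the unfolded-protein response, the pathway NAC103 is known for, held no member. Of 19 such genes, 1 was higher (14.4% of all genes) and 10 were lower (16.7%) in NAC103-OX than in nac103-11 on spectinomycin, with a median of -0.20. Against WT on spectinomycin 6 were higher (15.5%) and 2 lower (11.1%) in nac103-11. In NAC103-OX against WT none was higher (8.45%) and 6 were lower (8.32%). In gun1-101 against WT on spectinomycin 15 of the 19 were higher (27.7% of all genes) and 1 was lower (29.3%).

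The members lie on all 5 chromosomes, with 22, 14, 24, 15 and 25 on chromosomes 1 to 5. Those chromosomes hold 4105, 2355, 3099, 2418 and 3718 of the 15695 genes ranked. Pairs within 5 protein-coding genes of each other numbered 7 and involved 11 members. The member nearest to NAC103 on chromosome 5 was AT5G65990, 211 protein-coding genes away.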

How the data were processed

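The authors deposited 1 table with expected counts and TPM per library, made with RSEM 1.3.1 per the submitters' processing notes; the aligner, build and annotation are not given in the sources used here. Expected counts were rounded (98.3% were deposited without a fraction), and deposited TPM were used only for levels between genes. A further 80 value columns were not used. The counting's strand setting is not given, so reads of overlapping antisense genes cannot be told apart, and close copies such as MATE, MLP and P450 genes may share reads.

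The choice of members used CPM on library totals and log2(mean CPM + 1). Every level shown is CPM on TMM library sizes. All 24 libraries entered 1 edgeR 4.0.16 model (R 4.3.3, limma 3.58.1) with a mean per group, robust quasi-likelihood tests, 16 residual degrees of freedom and Benjamini-Hochberg adjustment over the 19567 genes that filterByExpr kept of 24497. The common biological coefficient of variation was 0.0466. The test was run on simulated counts first. Symbols came from RefSeq by gene ID, matching 24424 IDs and leaving 73 organelle IDs. Alternatives were DESeq2 1.42.0, RLE factors, raw totals, no filter, the contrast's groups alone, a replicate block and leaving out replicates.

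The members, the 28 gene lists and the role groups were chosen with earlier results of these data known. Named genes follow a rule: NAC103, GUN1, the 20 highest scores, the extremes on spectinomycin and in gun1-101, members in a list, and 3 genes on either side of the border. Other members named for their known roles were chosen after their values were seen. p-values measure only the spread between these samples, which may be technical, and counts limit the precision of low genes, 5 of the members having under 100 counts over a spectinomycin group.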

Additional observations from a re-analysis of the deposited data

How the results depend on the processing

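In every setting the count of members lower in nac103-11 than in WT on spectinomycin stayed between 72 and 87, and the counts higher in NAC103-OX than in WT (30 to 36), higher in NAC103-OX than in nac103-11 (75 to 85), lower in gun1-101 than in WT (74 to 84) and higher on spectinomycin within gun1-101 (24 to 48) stayed within 1.5 times of the main counts. The shares over all genes moved more: 6.73% with DESeq2 and 20.5% with raw totals were lower in nac103-11, 20.8% and 54.9% were lower in gun1-101, and 9.95% and 21.4% were higher in NAC103-OX than in nac103-11, so that the excess of the members over the background changed with the setting. The 6 members higher in gun1-101 than in WT became 3 with raw library totals, 11 with the contrast's groups alone and 11 without WT control replicate 2, an alternative chosen after seeing the data. Leaving out each replicate of that contrast gave 4 to 7. The 2 members lower on spectinomycin within gun1-101 became 1 with RLE factors, 1 with raw totals, 1 with no filter, 1 with the replicate block and 1 to 2 without 1 replicate of that contrast. They became 3 with the contrast's groups alone and 3 without WT control replicate 2. CYP81D11 in gun1-101 against WT turned from 0.15 to -0.076 with raw totals. The cause of these changes was not tested. Of the members chosen, 61 were chosen again with a filter of 20 CPM, 71 with a pseudocount of 5, 86 with TMM sizes and 73 to 100 without 1 replicate. The members shared with the same rule on spectinomycin numbered 24 to 30. Over 339 single-gene results in 4406 settings, 4193 kept direction and call, 212 lost the call and 1 changed direction.

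Replicate numbers did not pair the samples, since same-numbered libraries correlated between -0.18 and 0.12 in their deviations from the group means. Between gun1-101 and WT on spectinomycin each of 3 correlated best with its own number, at 0.041 to 0.087. With the replicate block the counts were 80 lower in nac103-11, 32 higher in NAC103-OX, 80 higher in NAC103-OX than in nac103-11, 76 lower and 6 higher in gun1-101, and 33 higher within gun1-101.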
